A study of Mus musculus with 6 samples.

Results

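Metallothioneins are small cysteine-rich proteins that bind zinc and copper ions and hold them in reserve in the cytosol. The transcription factor MTF-1, encoded by Mtf1, senses free zinc and activates the metallothionein genes through short promoter motifs called metal response elements (MREs). Zinc leaves the cytosol through the ZnT transporters of the Slc30a family and enters it through the ZIP transporters of the Slc39a family. Glucocorticoids, inflammatory cytokines and oxidants are also known inducers of metallothionein genes.

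Described here are 7 genes of this system, Mt1, Mt2, Mtf1, Slc30a1, Slc39a6, Slc39a10 and Slc39a14, of 16671 genes in the expression table. They were found by gene symbol, and all 7 were measured. The set was chosen because Mt1 and Mt2 were strongly lower with C1q. The values of all 7 members in this contrast, and whether they passed a threshold, are thus a description and not a test. The cells were fibro-adipogenic progenitors (FAPs), stromal cells of muscle, purified by flow sorting from hindlimb muscles of wild type mice of 4 to 5 months. One group received a vehicle control, and the other C1q, the protein complex that begins the classical complement cascade, at 100 ug/ml. Each group had 3 RNA sequencing libraries, each from 10 ng of total RNA, reverse transcribed with a SMART-Seq v4 low input kit. The extraction text speaks of muscle stem cells (MuSCs), while every sample is labelled as FAPs. The labels give no exposure time. They leave unsaid if the replicates are independent animals or cultures, and the p-values then describe spread among libraries that may be only technical. The comparison asks what C1q does to transcript levels in these cells.

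The libraries held 5379209 reads on genes in control replicate 3 and 24046020 to 38861152 in the other 5. Values are normalised read counts, that is, reads divided by a size factor per library. The FAP markers Pdgfra and Ly6a were at 15908 to 34035 and at 13242 to 17225 over the 6 libraries. Markers of other cells were present too, at uneven levels within each list. Among muscle stem cell and myoblast genes Pax7 was at 0 to 7.58, while Myod1 was at 236 to 1386 and Vcam1 at 3591 to 6530. The sum of 5 endothelial markers was 608 to 1287 in controls and 572 to 1274 with C1q, most of it Tek, and Pecam1 was at 0 to 95.0. The sum of 5 immune markers was 167 to 263 in controls and 207 to 588 with C1q. By limma-trend 0 of these endothelial and immune markers were called, and 0 had an unadjusted p below 0.05. Muscle fibre markers were present: the sum of 6 of them was 14730 to 56722 in controls and 10134 to 15982 with C1q, with 2 of 6 called lower and 1 higher. The sum of 7 muscle stem cell and myoblast markers was 6105 to 10599 in controls and 7021 to 8449 with C1q, with 4 called lower and 1 higher. Most of the C1q sum was Vcam1, the 1 called higher, at 3591 to 4149 in controls and 5159 to 6530 with C1q. The 4 called lower were Myf5, Myod1, Cdh15 and Myog. Myod1 was at 451 to 1386 in controls and at 236 to 271 with C1q. Among 5 pericyte and smooth muscle markers 3 were called higher and 0 lower. The sum of the 5 was 1797 to 2487 in controls and 4008 to 5758 with C1q. Most of that sum was Abcc9, while Rgs5 was at 0 to 6.72 over the 6 libraries and not called. The sum of 4 tenocyte markers was 7397 to 28066 in controls and 28434 to 68744 with C1q (1 called higher, 1 lower). Most of the tenocyte sum was Thbs4, which was not called and whose groups overlapped. Scx was called lower (358 ± 55.4 to 156 ± 37.9) and Tnmd higher (324 ± 164 to 1851 ± 504). The sum of 4 Schwann cell markers was 76.5 to 133 in controls and 199 to 223 with C1q (2 higher, 0 lower). Of 9 FAP markers 6 were called higher and 0 lower. All these counts stand beside 19.7% of all genes called higher and 18.7% called lower. In these bulk samples, fewer cells of a type and less RNA per cell cannot be told apart.

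Mt1 and Mt2 lie beside each other on the plus strand of chromosome 8 (GRCm38), Mt2 at 94172618 to 94173567 and Mt1 at 94178883 to 94180327, with 5513 bases between the main GENCODE transcripts. The coding sequences of the main transcripts, read from GENCODE vM21 of the same build, are shown because the cysteine codons, in capitals, carry the metal binding for which the family is named. Each is spread over 3 exons, at 94179311 to 94179338, 94179823 to 94179888 and 94180102 to 94180193 for Mt1 and at 94172848 to 94172875, 94173127 to 94173192 and 94173336 to 94173427 for Mt2.
Mt1 coding sequence: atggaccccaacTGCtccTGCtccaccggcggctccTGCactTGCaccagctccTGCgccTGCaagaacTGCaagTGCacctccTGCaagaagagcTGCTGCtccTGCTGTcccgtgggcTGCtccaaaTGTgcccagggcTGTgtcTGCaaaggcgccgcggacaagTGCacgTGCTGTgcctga
Mt2 coding sequence: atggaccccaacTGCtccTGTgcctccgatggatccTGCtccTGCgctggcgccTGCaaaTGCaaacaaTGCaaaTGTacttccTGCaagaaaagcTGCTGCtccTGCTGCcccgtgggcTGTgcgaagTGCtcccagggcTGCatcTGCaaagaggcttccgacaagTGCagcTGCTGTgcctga
Both have 186 coding bases, and 20 of the 61 codons before the stop, 32.8%, encode cysteine. All 20 cysteine codons are at the same positions in both genes. Over the coding sequence 148 of 186 bases (79.6%) are identical, and the longest identical run between both mRNAs is 20 bases.

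The bases before the RefSeq start of Mt1, Mt2 and Slc30a1, the zinc exporter gene known to be driven by MTF-1, are shown with matches to the MRE core in capitals (RefSeq, GRCm38.p6, all on the plus strand). Each stretch ends before the first GENCODE start, although the RefSeq gene spans of Mt1 and Slc30a1 begin further upstream. The core was searched as TGCACNC and TGCGCNC on both strands. A match on the minus strand reads as its reverse complement, and matches on opposite strands may overlap.
Mt1, chr8:94178839-94179081: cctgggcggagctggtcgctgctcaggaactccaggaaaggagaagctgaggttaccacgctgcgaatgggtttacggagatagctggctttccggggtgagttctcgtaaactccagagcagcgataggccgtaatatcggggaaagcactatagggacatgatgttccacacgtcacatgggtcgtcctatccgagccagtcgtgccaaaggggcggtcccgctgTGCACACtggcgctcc
Mt2, chr8:94172368-94172617: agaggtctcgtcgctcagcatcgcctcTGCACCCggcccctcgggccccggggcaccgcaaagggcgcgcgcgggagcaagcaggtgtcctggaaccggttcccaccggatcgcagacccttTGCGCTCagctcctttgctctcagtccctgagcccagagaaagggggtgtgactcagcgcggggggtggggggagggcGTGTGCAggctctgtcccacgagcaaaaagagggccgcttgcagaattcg
Slc30a1, chr1:191906531-191906766: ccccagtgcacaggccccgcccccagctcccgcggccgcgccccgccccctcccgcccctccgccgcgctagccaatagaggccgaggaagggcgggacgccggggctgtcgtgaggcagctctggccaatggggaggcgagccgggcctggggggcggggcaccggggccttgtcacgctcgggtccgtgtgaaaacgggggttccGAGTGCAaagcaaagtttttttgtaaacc
In the 250 bases before the RefSeq start, Mt2 has 3 matches, with first bases at -223, -128 and -50, Mt1 has 1 at -23 and Slc30a1 has 1 at -43. Either core is found in 21.4% of the 32851 promoter windows of the same length, and 3 or more matches in 1.26% of them. The table has windows for Mtf1 and Slc39a10 too, and these hold 0 matches; Slc39a10 has a pair of annotated starts. Annotated starts differ between sources, and in the stretch from the first GENCODE start to the start codon a further 4 matches were counted for Mt1 (229 bases) and 3 for Mt2 (184 bases). The antioxidant response element core TGACNNNGC, on both strands, has 1 match in the Mt2 window, 1 in that of Slc30a1 and 0 in that of Mt1, and is found in 10.2% of all windows. These matches are letters in a sequence, and no binding was measured here.

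Both metallothionein genes were far lower in cells given C1q, to about the same degree. Mt1 (Entrez gene 17748) had normalised read counts of 6183, 7032 and 6598 in control replicates 1, 2 and 3 and of 736, 782 and 912 in C1q replicates 1, 2 and 3. The group means were 6604 ± 425 and 809.8 ± 91.6 (SD, n = 3 throughout), an 8.17-fold lower level with a log2 fold change of -3.03 ± 0.095 (SE). Mt2 (Entrez gene 17750) had values of 4712, 5607 and 5989.8 in controls and of 471, 532 and 664 with C1q. Its means were 5436 ± 656 and 556 ± 98.9, a 9.82-fold lower level with a log2 fold change of -3.30 ± 0.14. For both genes every C1q library lay below every control library, with a wide gap. Even control replicate 3, the shallowest library, held 1552 reads of Mt1 and 1409 of Mt2.

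Among the genes called lower, with a Benjamini-Hochberg adjusted p below 0.05 in limma-trend, Mt2 had the 10th and Mt1 the 16th largest fall by fold change. Together the genes made up 0.0481%, 0.0558% and 0.0550% of all normalised reads in control replicates 1 to 3, and 0.00536%, 0.00561% and 0.00708% with C1q. The ratio of Mt1 to Mt2 within a library was 1.31, 1.25 and 1.10 in controls and 1.56, 1.47 and 1.37 with C1q. The ratio was thus higher in every C1q library, with means of 1.22 ± 0.109 and 1.47 ± 0.0947. On an annotated exon of Mt2 lies an exon of Gm45774 on the opposite strand. No source used here says if reads were counted by strand, so reads of this pair of genes cannot be told apart. Mt1 has no such overlap in GENCODE. After a smooth trend of log2 fold change with the length of each gene's longest transcript was subtracted, Mt2 stood at -2.48 and Mt1 at -2.58. With the length of the main transcript, an alternative chosen after seeing the data, Mt2 stood at -2.58 and Mt1 at -2.33. The order of the pair thus depended on which length was used, and both genes were called lower either way. The summed muscle fibre markers were at 56722, 32258 and 14730 in control replicates 1, 2 and 3, while the sum of Mt1 and Mt2 was 10895, 12639 and 12588. The part of these markers and of the pericyte, myoblast, tenocyte, Schwann cell and FAP markers in the results was not tested.

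**Figure D1:**
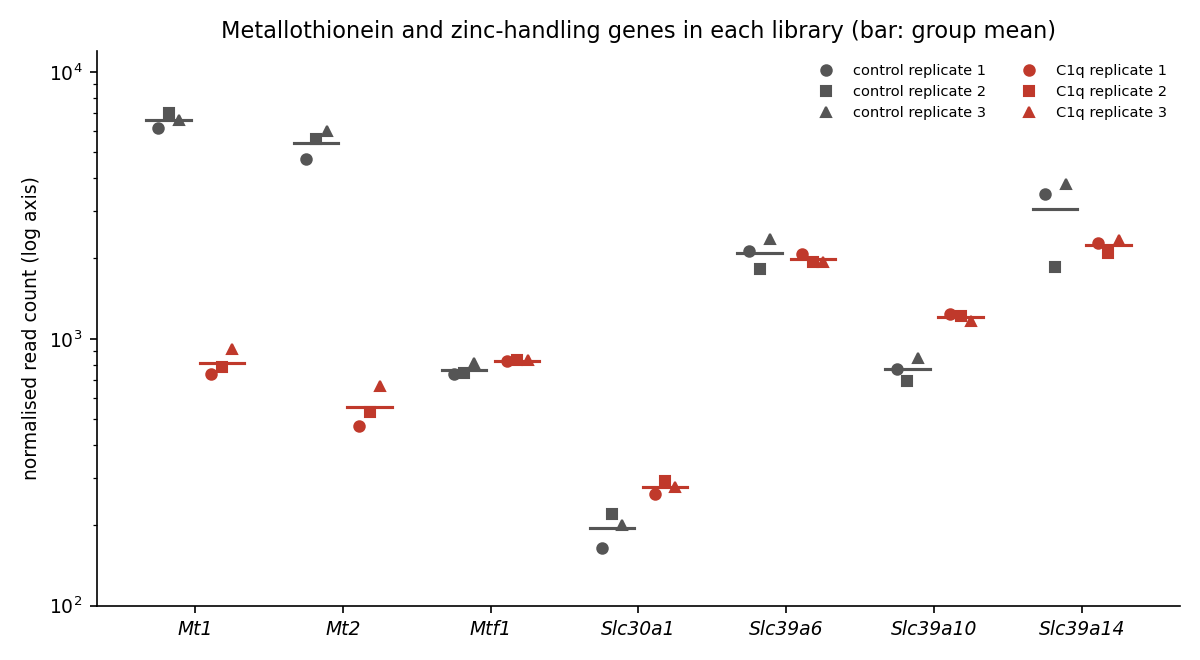
Normalised read count (log axis) of the 7 genes in each library, grey for control and red for C1q, with replicates 1 to 3 as circle, square and triangle and the group mean as a bar. Mt1 and Mt2 stand at 4712 to 7032 in controls and at 471 to 912 with C1q, while the other 5 genes differ far less between groups.

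Of the 7 members 4 were called, Mt1 and Mt2 lower and Slc30a1 and Slc39a10 higher, where 38.3% of all genes tested were called. The groups did not overlap at 5 members, 3 higher and 2 lower with C1q, against 52.1% of all genes, 26.8% higher and 25.4% lower. The members' median log2 fold change was -0.08, and that of all genes 0.03. As the members were chosen on this contrast, nothing is read from these counts.

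Mtf1, the gene of the zinc sensor itself, was nearly level. Mtf1 (Entrez gene 17764, chromosome 4, 124802549 to 124849800) had values of 737, 744 and 812 in controls and of 823, 830.4 and 832 with C1q. The means were 764 ± 41.3 and 828 ± 4.64, with a log2 fold change of 0.12 ± 0.07, and the gene was not called. All 3 C1q libraries lay above all controls, but control replicate 3 came close to the lowest of them. With the trend on the longest or the main transcript removed, the log2 fold change of this gene, whose main transcript of 7631 bases is the longest of the 7, was -0.34 or -0.37 and was called lower. Exons of 1110065P20Rik overlap Mtf1 on the opposite strand, and that gene had means of 247 and 219.

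Slc30a1 encodes ZnT1, the exporter that moves zinc out through the plasma membrane. Slc30a1 (Entrez gene 22782, chromosome 1, 191906697 to 191913248) had values of 165, 220.1 and 199.8 in controls and of 263, 293 and 278 with C1q. The means were 195 ± 27.9 and 278 ± 15.3, a 1.43-fold higher level with a log2 fold change of 0.52 ± 0.13. The groups did not overlap, and the direction was opposite to that of Mt1 and Mt2. The call was lost without C1q replicate 2 (0.48) or C1q replicate 3 (0.52), with every library thinned to the depth of the shallowest (0.49), and with the trend on the longest (0.25) or the main transcript (0.22) removed. Exons of 1700034H15Rik overlap it on the opposite strand.

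The 3 ZIP importers did not move together. Slc39a10 (ZIP10, Entrez gene 227059, chromosome 1, 46807544 to 46925776) had values of 771, 693 and 846 in controls and of 1244, 1220.2 and 1168 with C1q. Its means were 770.1 ± 76.3 and 1210.5 ± 38.9, a 1.58-fold higher level with a log2 fold change of 0.66 ± 0.09. The groups were clearly apart, and with the trend on the longest or the main transcript removed the log2 fold change was 0.36 or 0.33 and still called.

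Slc39a6 (ZIP6, Entrez gene 106957, chromosome 18, 24579881 to 24603817) had values of 2138.5, 1821 and 2355 in controls and of 2085, 1936 and 1933 with C1q. Its means were 2105 ± 269 and 1984 ± 87.0, with a log2 fold change of -0.08 ± 0.10, and the C1q libraries lay inside the range of the controls. The gene was not called. ZIP6 and ZIP10 are close relatives known to form a complex with each other.

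Slc39a14 encodes ZIP14, an importer of zinc, iron and manganese that inflammatory signals are known to induce. Slc39a14 (Entrez gene 213053, chromosome 14, 70303467 to 70351452) had values of 3494, 1858 and 3800.5 in controls and of 2281, 2097 and 2336 with C1q. The means were 3051 ± 1045 and 2238 ± 125, with a log2 fold change of -0.38 ± 0.25, and the gene was not called. Control replicate 2 alone lay below the C1q libraries, and the other controls well above them. Without control replicate 2 the log2 fold change was -0.70 and the gene was called lower, while it was -0.19 without control replicate 3. With the replicate number as a block and the trend on the longest (-0.63) or the main transcript (-0.64) removed, it was also called lower, but not with the block alone.

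Levels were compared between genes per kilobase of the main transcript in GENCODE. In controls Mt1 stood at 12029.6 ± 773 and Mt2 at 10638.5 ± 1284 normalised reads per kilobase, ranks 121 and 135 of 14506 genes. With C1q they stood at 1475 ± 167 and 1087 ± 193, ranks 874 and 1272. These 2 genes differed in level by less than the sum of their SDs in controls. Next came Slc39a14 (619 ± 212 in controls and 454 ± 25.4 with C1q) and Slc39a6 (542 ± 69.2 and 511 ± 22.4), which in controls did not differ beyond their spread. Slc39a10 followed at 140.1 ± 13.9 and 220.2 ± 7.07, then Mtf1 at 100.2 ± 5.41 and 108.5 ± 0.608, and Slc30a1 was the lowest at 37.2 ± 5.32 and 53.0 ± 2.91. In both groups Mt1 and Mt2 led this order and Slc30a1 ended it, and with C1q Slc39a6 stood above Slc39a14.

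The rest of the zinc system was read from lists of the other family members. Of 9 further Slc30a exporters 7 were measured, and 1 was called higher and 0 lower, beside 19.7% and 18.7% of all genes. Slc30a7, which encodes a ZnT that loads zinc into the Golgi, went from 1911 ± 135 to 2340 ± 155 (log2 fold change 0.29, limma-trend adjusted p 0.0224). That call turned with the trend on the longest transcript removed, where Slc30a7 stood at -0.24 (adjusted p 0.0400), or the main transcript (-0.25, 0.0319), and it was lost when any library other than the third of either group was left out (0.0580 to 0.0882). Exons of other annotated genes overlap Slc30a7 on the opposite strand. With edgeR and TMM scaling 1 exporter was called higher and 1 lower. The other 6 exporters had log2 fold changes of -0.29 to 1.27, and the median of the 7 was 0.16 against 0.03 over all genes.

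Of 11 further Slc39a importers 10 were measured, and 2 were called higher and 2 lower, a share near the 38.3% of all genes. Slc39a7, which encodes ZIP7, the transporter that releases zinc from the endoplasmic reticulum, had values of 6593, 5885 and 6381 in controls and of 4802, 4854 and 4693 with C1q (log2 fold change -0.39, limma-trend adjusted p 0.00340). All C1q libraries lay below all controls, and this was the importer whose call held without any 1 library. Slc39a8, the closest relative of Slc39a14, went from 289 ± 57.3 to 406 ± 20.2 (0.51, adjusted p 0.0273). Slc39a5 went from 21.0 ± 1.60 to 9.85 ± 0.878 (-1.02, adjusted p 0.0254), with 5 to 33 reads per library. Slc39a12 had 0 reads in all 3 controls and 10, 1 and 8 reads in C1q replicates 1, 2 and 3. Its C1q mean of 4.67, from 19 reads, was 5.04-fold above a floor of 3 reads over the control group, 0.926. That floor bounds only the control side, and C1q replicate 2, at 0.975, lay near it. The limma-trend adjusted p of Slc39a12, with the controls left at 0, was 0.0357. The calls of Slc39a8 and Slc39a5 were lost when any library other than control replicate 3 was left out, with adjusted p of 0.0594 to 0.0881 and of 0.0526 to 0.0894. Slc39a8 was not called either after thinning (0.187) or with the trend on the longest (0.0923) or the main transcript (0.0778) removed, nor was Slc39a5 in DESeq2 (0.0816) or after thinning (0.262). The call of Slc39a12 was lost when any library other than control replicate 3 and C1q replicate 2 was left out (0.0738 to 0.148). It was also lost with 5 added to each value before the logarithm (0.0556) and after thinning (0.166). With the replicate number as a block and the trend on the longest (0.0524) or the main transcript (0.0584) removed, it was lost too. The median of the 10 was 0.19, and also with the controls of Slc39a12 set to that floor.

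Mt3, the third metallothionein gene of the cluster, was barely detected, with 5, 5 and 4 reads in controls and 2, 0 and 1 with C1q. Mt3 was not called (limma-trend adjusted p 0.0531). Its log2 fold change of -2.12 ranged from -3.10 to -1.02 over the 17 alternatives that gave a value, and was -1.43 without control replicate 3.

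**Figure D2:**
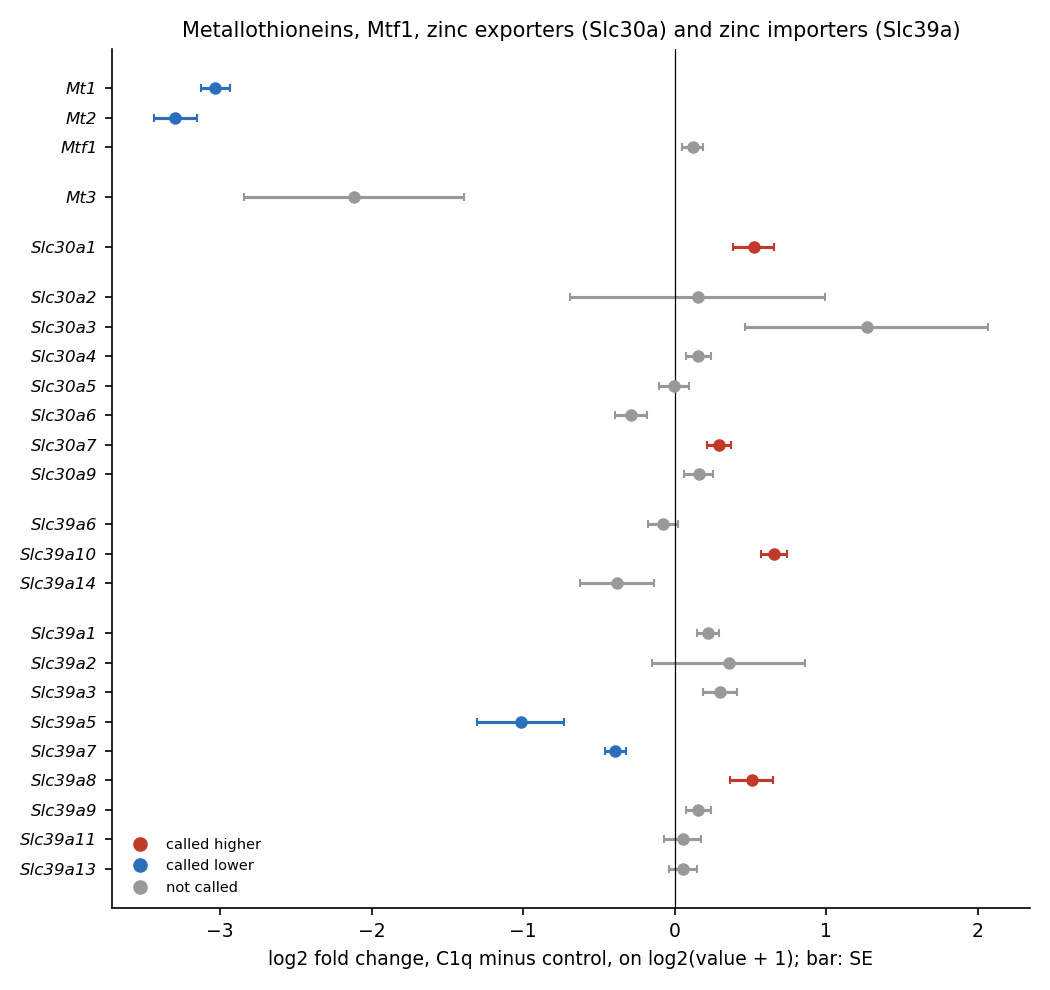
Log2 fold change of C1q minus control on log2(value + 1), with its SE, for the metallothioneins, Mtf1, the Slc30a exporters and the Slc39a importers, colored by the limma-trend call. Slc39a12, at 0 in all controls, is left out. Mt1 and Mt2 stand at -3.03 and -3.30, and of the transporters shown only Slc39a5, at -1.02, and Slc30a3, at 1.27 and not called, lie beyond 1 in either direction.

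Of 6 genes reported elsewhere as targets of MTF-1, all measured, 1 was called higher and 2 lower, beside 19.7% and 18.7% of all genes. Their median log2 fold change was -0.51. Ndrg1, a stress-responsive gene that MTF-1 has been reported to regulate, had values of 1073, 1545 and 1403 in controls and of 3092, 3142 and 3404 with C1q (log2 fold change 1.28, limma-trend adjusted p 4.50e-04). The selenoprotein gene Selenow went from 8510.3 ± 1100 to 5184 ± 331 (-0.71, adjusted p 0.00183), and Selenoh from 416 ± 64.6 to 317 ± 5.57 (-0.38, adjusted p 0.0424). With the trend on the longest transcript removed Selenow was at -0.06 and Selenoh at 0.24, and with that on the main transcript at -0.12 and 0.18, none of them called, and Selenoh lost its call when any library other than control replicate 3 was left out (adjusted p 0.0825 to 0.121). Gclc, which encodes the rate-limiting enzyme subunit of glutathione synthesis, stood at -0.37 (adjusted p 0.0927) and the iron exporter gene Slc40a1 at -0.64 (adjusted p 0.188). With the replicate number as a block, 1 of these 6 was called higher and 4 lower, as Gclc (adjusted p 0.0146) and Slc40a1 (0.00832) were then called. Slc40a1 was also called without control replicate 3 (-0.96, adjusted p 0.0367) and by limma-voom (-0.91, adjusted p 0.0296). Gclc was also called with array weights (-0.46, limma-trend adjusted p 0.0433). Both were called too with the block and either length trend removed.

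Copper is the other essential metal that metallothioneins bind. Of 13 genes of copper uptake, delivery and use, 12 were measured, and 2 were called higher and 6 lower, beside 19.7% and 18.7% of all genes, with a median log2 fold change of -0.32. The lower calls were 4 with the trend on the longest transcript removed and 3 with that on the main transcript, where 3 were called higher. The largest difference of the list was that of Sod3, the extracellular superoxide dismutase, which went from 7734 ± 2867 to 15044 ± 1011 (1.02, limma-trend adjusted p 0.00950). The copper transporter gene Slc31a2 went from 422 ± 31.9 to 562 ± 45.9 (0.41, adjusted p 0.0125, and 0.0536 without C1q replicate 1). These 2 were named after their values were seen. Cox17, the chaperone that brings copper to cytochrome c oxidase, went from 431 ± 24.9 to 220.2 ± 15.8 (-0.97, limma-trend adjusted p 4.56e-04). Atox1, which hands copper to the export pumps, went from 1238 ± 68.1 to 798 ± 36.1 (-0.63, adjusted p 6.34e-04), but was at 0.16 with the trend on the longest transcript removed and at 0.07 with that on the main transcript, and then not called. The uptake channel gene Slc31a1 went from 1609 ± 31.7 to 1221 ± 66.1 (-0.40, adjusted p 0.00269). Sod1, the copper and zinc superoxide dismutase, went from 3827 ± 327 to 2791 ± 56.3 (-0.45, adjusted p 0.00289), and Commd1 from 881 ± 114 to 609 ± 15.7 (-0.53, adjusted p 0.00589). Sod1, whose main transcript is 641 bases and longest 3970, was at -0.56 with the trend on the longest transcript removed but at 0.19 (adjusted p 0.0499) with that on the main transcript. Cox17, Slc31a1 and Commd1 were called lower under every alternative run. The longest and the main transcript have the same length for Cox17 (3690 bases) and for Commd1 (4508 bases). Removal of either length trend thus took no shorter form of these genes into account. Exons of Gm21987 overlap Cox17 on the same strand, and exons of Gm28048 overlap Commd1.

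Of 20 genes of iron handling, all measured, 4 were called higher and 7 lower, beside 19.7% and 18.7% of all genes, with a median of -0.12. With the replicate number as a block 8 were called higher and 8 lower, and with the trend on the main transcript removed 2 higher and 5 lower. Hmox1, the haem-degrading oxygenase that is induced by oxidants and metals as Mt1 is, had values of 5040.3, 5444 and 3809 in controls and of 1862, 1852 and 1752 with C1q (-1.37, limma-trend adjusted p 3.43e-04). Tfrc, the transferrin receptor, had values of 1487, 949 and 1016 in controls and of 397, 453 and 459 with C1q (-1.37, adjusted p 8.03e-04). For both genes the C1q libraries lay close together and below all controls. The divalent metal transporter gene Slc11a2 went from 1306 ± 170.2 to 803 ± 39.0 (-0.69, adjusted p 0.00192), and the iron chaperone gene Pcbp1 from 8761 ± 214 to 5790.4 ± 240.4 (-0.60, adjusted p 5.75e-04). Ncoa4, the receptor for breakdown of ferritin, went the other way, from 636 ± 61.3 to 923 ± 21.6 (0.54, adjusted p 0.00239).

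Of 12 glucocorticoid target genes, all measured, 4 were called higher and 3 lower, beside 19.7% and 18.7% of all genes, with a median of 0.15. Klf9 went from 2095 ± 95.2 to 1183 ± 46.6 (log2 fold change -0.82, limma-trend adjusted p 2.27e-04), Errfi1 from 3830.1 ± 247 to 2426 ± 194 (-0.66, adjusted p 8.72e-04) and the phosphatase gene Dusp1 from 1451 ± 329 to 677 ± 145 (-1.10, adjusted p 0.00528). Pdk4, a kinase that restrains pyruvate oxidation, went from 670.2 ± 187 to 1213 ± 249 (0.87, adjusted p 0.0155, and 0.0543 without C1q replicate 1). Sult1a1 rose from 34.1 ± 40.1 to 180.3 ± 54.9 (2.97, adjusted p 0.0157), and it was not called without control replicate 1, without C1q replicate 2 (adjusted p 0.0586) or without C1q replicate 3 (0.0508). Without C1q replicate 2 or C1q replicate 3 only 1 gene of this list was called higher and 3 lower.

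Within 500 kb of Mt1, 14 other genes of the table were found, and 4 were called higher and 4 lower, beside 19.7% and 18.7% of all genes, with a median log2 fold change of 0.09. Ogfod1 (657 ± 23.3 to 918 ± 42.2), Gnao1 (647 ± 46.3 to 912 ± 23.6) and Rspry1 (898 ± 69.5 to 1252 ± 66.7) were at 0.48, 0.50 and 0.48 (limma-trend adjusted p 0.00170, 0.00213 and 0.00298). With the trend on the longest transcript removed Ogfod1 and Gnao1 were at 0.21 and 0.20 and not called. With that on the main transcript Gnao1 was at 0.40 and called, and Ogfod1 at 0.18 and not called. Cpne2 (1176 ± 26.7 to 843 ± 63.4) and Nudt21 (511 ± 29.7 to 367 ± 26.1) were both at -0.48 (adjusted p 0.00215 and 0.00537). Apart from Mt3, the largest difference among these 14 genes was 0.88, at a gene with a control mean of 0.840.

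**Figure D3:**
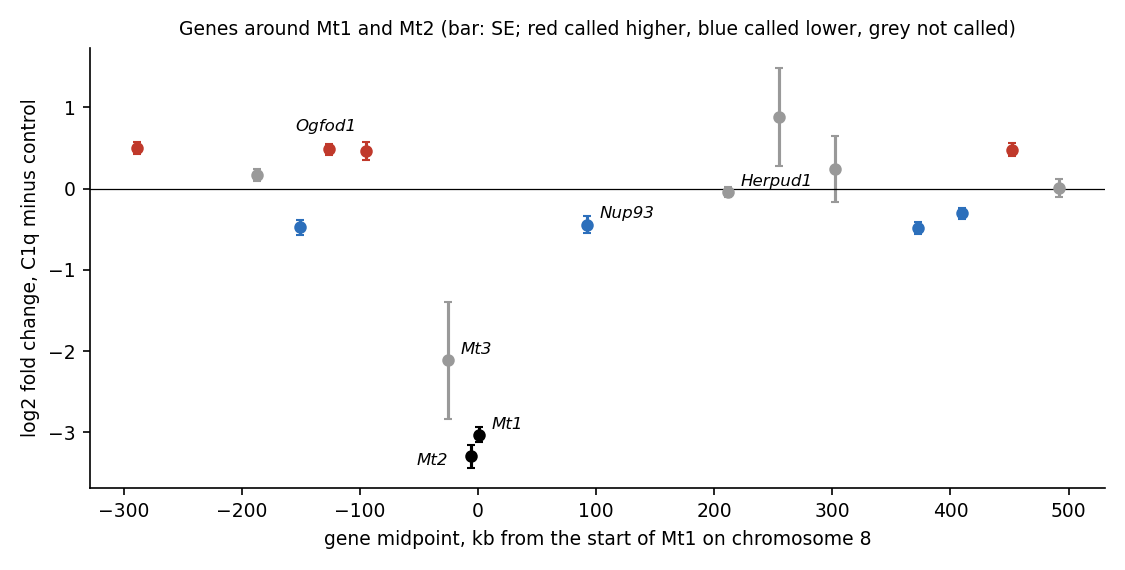
Log2 fold change of C1q minus control, with its SE, of Mt1, Mt2 (black) and 14 other genes within 500 kb, by distance of the gene's midpoint from the start of Mt1. Mt1, Mt2 and the barely detected Mt3 lie at -2.12 or lower, and the other genes between -0.48 and 0.88.

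The 5 genes with the most similar profile were sought among 12300 genes outside the members whose log2(value + 1) averaged 5 or more. The measure was the root mean square difference, over the 6 libraries, from the mean centred profile of Mt1 and Mt2. It was 0.399 for Spp1 (osteopontin), 0.469 for Atp6v0d2 (a vacuolar proton pump subunit), 0.494 for F7 (coagulation factor VII), 0.501 for Itgb7 (an integrin chain) and 0.511 for Aldoc (an aldolase of glycolysis). Between Mt1 and Mt2 themselves it was 0.162. Spp1 went from 40069 ± 13203 in controls to 5709 ± 1727 with C1q, 6.93-fold lower. Atp6v0d2 went from 200.1 ± 44.9 to 18.8 ± 8.46, 10.6-fold lower. F7 stood at 136, 136 and 132 in controls and at 27.5, 30.2 and 22.4 with C1q, 4.93-fold lower. Aldoc stood at 255, 197 and 298 in controls and at 49.3, 35.1 and 66.5 with C1q, 4.98-fold lower. Itgb7 stood at 75.2, 106 and 68.0 in controls and at 15.5, 15.6 and 18.7 with C1q, 4.71-fold lower. As the difference between groups makes up most of the profile, these genes were in effect chosen for a fall of similar size, and no test is given.

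**Figure D4:**
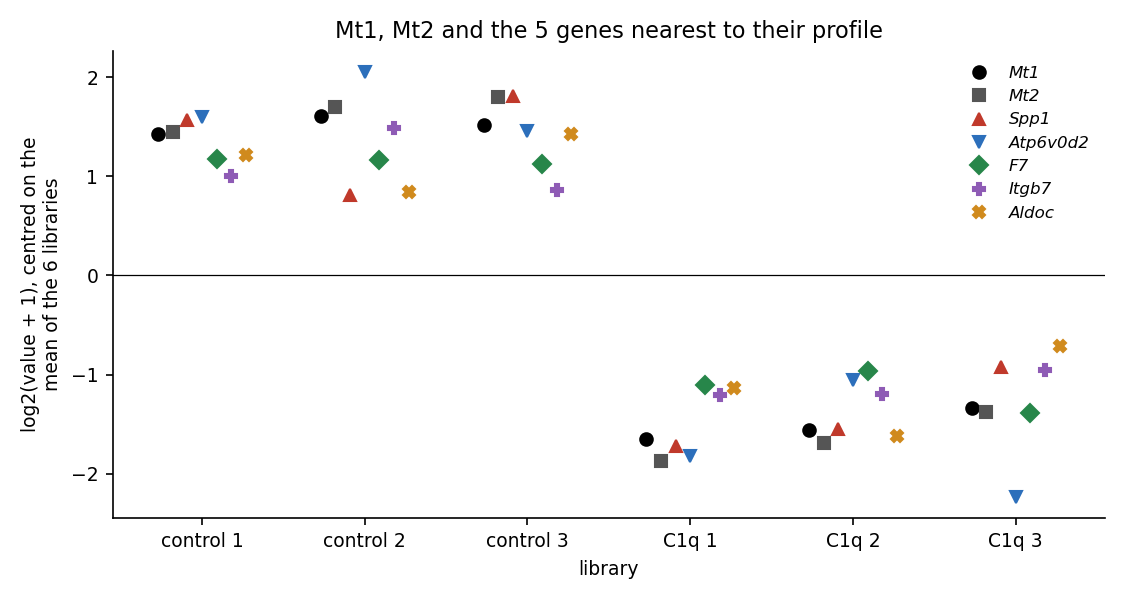
Log2(value + 1) of Mt1, Mt2 and the 5 genes nearest to their profile in each library, centred on each gene's mean over the 6 libraries. All 7 genes are above 0 in the 3 controls and below 0 in the 3 C1q libraries, and Mt1 and Mt2 stay closest to each other (root mean square difference 0.162).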

How the data were processed

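The authors deposited a table of normalised signal: for each Entrez gene, reads scaled by one size factor for the whole library. The column headers read counts, but the values have decimals. The submitters' processing notes list Trimmomatic, HISAT2, featureCounts, DESeq2 and mm10. No source used here gives their versions, the gene annotation or the strand option. Within each library 100% of values were whole multiples of what 1 read is worth, within 0.001 of a read, so reads were recovered. One read is worth 4.25 units in control replicate 3 and 0.583 to 0.975 in the other libraries.

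Groups were compared by limma-trend (version 3.58.1, R 4.3.3) of log2(value + 1), for genes whose mean was at least 1, with Benjamini-Hochberg adjustment over 16671 genes and a threshold of 0.05; such fold changes understate the change of low genes. "Called" means past that threshold. Alternatives were other pseudocounts and filters, edgeR 4.0.16, DESeq2 1.42.0 and limma-voom on recovered reads, array weights, thinning to 5379209 reads, removal of a loess trend on the length of each gene's longest transcript (span 0.5, genes with a mean of at least 20), the replicate number as a block, and leaving out each library. After seeing the data the same trend on the main transcript, the longest with an APPRIS principal label, was added (14506 genes). The scripts were tested on simulated data. The members and all lists were chosen with earlier results of these data known. Named were all members, called zinc genes, up to 5 genes with the lowest p of each other list, and the 5 genes nearest in profile.

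Symbols and coordinates came from RefSeq GRCm38.p6 (16077 of 16671 IDs matched), promoter windows from the same build (5 of 7 members matched), and coding sequences and lengths from GENCODE vM21 (89.6% of IDs). Deviations of same-numbered libraries from their group means correlated at 0.123, 0.175 and 0.132, all above the limit of 0.1, so libraries of one number were treated as pairs in the blocked fit; the labels state no pairing. Replicates differed beyond sampling noise (chi-square per degree of freedom 17.6 to 42.9).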

Additional observations from a re-analysis of the deposited data

How the results depend on the processing

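Mt1, Mt2 and Slc39a10 kept their direction and their call under all 21 alternatives, with log2 fold changes of -3.12 to -2.33, -3.43 to -2.48 and 0.33 to 0.73. These fits reuse the libraries on which the members were chosen, so they show only how the values depend on the processing. The count of members called was 3 to 5, and that over all genes 4607 to 7413, against 6389, both within 1.5 times. With the trend on the longest transcript removed, with or without the replicate block, Mtf1 turned to -0.34, Slc30a7 to -0.24, Selenoh to 0.24 and Atox1 to 0.16. With the trend on the main transcript, chosen after seeing the data, they turned to -0.37, -0.25, 0.18 and 0.07, and Sod1 to 0.19. Slc39a6 turned to 0.01 without control replicate 3, in a range of -0.18 to 0.01 without 1 library. The block gave 6833 calls over all genes, took the reported MTF-1 targets from 3 to 5, and took iron genes from 11 to 16. With the trend on either length removed 1 MTF-1 target was called, and with that on the main transcript 7 iron genes. Trend and block together left 2 zinc importers, against 4, by either length, 0 exporters, against 1, by the longest transcript, and 5 copper genes, against 8, by the main one. Thinning left 1 importer and called Mt3, the 1 other metallothionein measured. Exporters called were 2 with edgeR and TMM scaling and with limma-voom. Without 1 library exporters called were 0 to 1, importers 1 to 6 and glucocorticoid targets 4 to 8, against 7. The causes were not tested. DESeq2 gave no adjusted p for Slc39a12. Slc39a12 and Mt3 had too few reads for edgeR and limma-voom, and for the filter at a mean of at least 10. Depth limits Mt3, Slc39a5 and Slc39a12, whose libraries held 33 reads at most.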
